A study of Mus musculus with 9 samples.

Results

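The genes described here encode 10 matrix proteins other than collagens that were measured in fibroblasts of the mouse thyroid: decorin (Dcn), lumican (Lum), fibrillin-1 (Fbn1), osteonectin (Sparc), periostin (Postn), thrombospondin-4 (Thbs4), cartilage intermediate layer protein (Cilp), myocilin (Myoc), spondin-2 (Spon2) and Clec11a. They are 10 of 52636 genes in the count table. They were chosen from earlier results on these same cells, with their levels in the fibroblast label F under the 3 antibodies in view. Their values in F are therefore a description, printed without p-values, and members among the genes called in F are only counted beside the share of all genes called. Adjusted p-values are given for other cell labels and for other matrix genes, whose lists were also drawn up with earlier results known.

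Between the cells of a connective tissue lies a meshwork of fibrillar collagen, which other secreted proteins bind, space and remodel. Decorin and lumican are small leucine-rich proteoglycans that bind collagen fibrils and affect their spacing and thickness. Fibrillin-1 forms the microfibrils that carry elastin and hold latent growth factors, while osteonectin, periostin, thrombospondin-4 and spondin-2 belong to the secreted glycoproteins that modulate contacts between cells and matrix more than they build it. Notch signalling passes between touching cells, with the ligands Jag1 and Jag2 on one cell and receptors such as Notch1 and Notch2 on its neighbour.

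Thyroids came from male C57BL/6 mice, 10 to 12 weeks old by the series' design text and 10 to 14 weeks old by the treatment protocol. Each mouse received 1 injection into the abdomen and the treatment label gives 7 days. The control group RW received an antibody against ragweed at 40 mg/kg, the group aJ1aJ2 received antibodies against Jag1 and Jag2 at 20 mg/kg each, and the group aN1aN2 received antibodies against Notch1 at 5 mg/kg and Notch2 at 10 mg/kg. Each group has 3 samples, and each sample is a pool of thyroids from 6 mice, so the replicate is a pool. The antibodies were given to the whole animal, so no group limits the blockade to fibroblasts or to the thyroid.

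The table held 10186 cells under 16 cell labels of the authors and 63121420 unique molecular identifiers (UMIs, counts of single captured RNA molecules), in libraries of 583 to 1805 cells. Label F held 538 cells with 3299384 UMIs. The 3 RW samples had 43, 51 and 26 F cells, the aJ1aJ2 samples 1, 3 and 4 had 54, 121 and 122, and the aN1aN2 samples had 47, 41 and 33. The median F cell had 5561 to 10026 UMIs in RW, 5231.5 to 7910 in aJ1aJ2 and 2295 to 3864 in aN1aN2, so the receptor blockade is also the shallowest group. Sample numbers in the titles fall into 3 ranges. RW 3 and aJ1aJ2 1 form series A, the other RW and aJ1aJ2 samples form series B, and all aN1aN2 samples form series C. The receptor blockade and series C cannot be told apart.

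Label F carried the markers of fibroblasts. All 8 fibroblast genes on the marker list had UMIs there, and the receptor gene Pdgfra lay between 585 and 990 counts per 1000000 UMIs of the label (CPM) in the 9 samples. The list did not hold level, since its collagen genes were lower in both blockades. Gsn, on the same list, was higher, with means of 32812, 38258 and 43044 CPM in RW, aJ1aJ2 and aN1aN2. Of its other genes that are not collagens, Dpt had means of 1405, 1528 and 522 CPM and Serpinf1 of 1815, 1581 and 752 CPM. Mean Col3a1 was 8330 CPM in RW, 2333 CPM in aJ1aJ2 and 297 CPM in aN1aN2, and mean Col1a1 was 4920, 1618 and 418 CPM. Pi16, a marker of adventitial fibroblasts, had means of 2146, 1337 and 261 CPM, and Ly6c1 from the same list 558, 548 and 561 CPM. The part of these shifts in the results on matrix genes in F was not tested. Of the genes that define other cells, Sox10 (Schwann cells), Trac (T cells), Acan and Col9a1 (cartilage), and Upk3b and Lrrn4 (mesothelium) had no UMI in F. Other markers on such lists were present. The thyrocyte gene Tg had means of 416, 455 and 715 CPM in RW, aJ1aJ2 and aN1aN2, the parathyroid gene Pth 146, 143 and 250 CPM, and Sox9 from the cartilage list 30.1, 40.5 and 9.53 CPM. Erythroid genes summed to 109 to 296 CPM in RW, 161 to 982 CPM in aJ1aJ2, and 851, 43492 and 1233 CPM in aN1aN2 1, 2 and 3. The library aN1aN2 2 therefore stands apart, with 4 globin genes at a far higher level in its F cells. Barcodes shared with another library occurred in 30 cells, 1 of them in F. F cells made up 3.26% ± 0.717 of cells in RW, 7.92% ± 1.28 in aJ1aJ2 and 4.64% ± 0.157 in aN1aN2 (SD, n = 3). Each pair of groups gave p = 0.1 (exact permutation test, two-sided, adjusted p = 0.1), the smallest that 3 against 3 samples allow, and genes that mark F differed between the groups.

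Thbs4, Cilp and Myoc were the members that were higher in F under ligand blockade, and Clec11a is one that was lower under both blockades. To show what lies before these genes, the 150 bases upstream of the transcription start in RefSeq (build GRCm38.p6) are given 5′ to 3′ on the strand of the gene, with matches to any of 8 searched motifs in capitals. The windows are chr9:65265030-65265179 (plus strand) for Cilp, chr1:162639000-162639149 (plus strand) for Myoc, chr13:92794819-92794968 (minus strand) for Thbs4 and chr7:44306960-44307109 (minus strand) for Clec11a. The RefSeq start of Clec11a lies outside the gene in the GENCODE annotation, where it spans 44302687 to 44306902.
Cilp: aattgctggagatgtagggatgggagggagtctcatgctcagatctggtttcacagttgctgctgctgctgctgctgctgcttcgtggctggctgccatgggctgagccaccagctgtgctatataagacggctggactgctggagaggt
Myoc: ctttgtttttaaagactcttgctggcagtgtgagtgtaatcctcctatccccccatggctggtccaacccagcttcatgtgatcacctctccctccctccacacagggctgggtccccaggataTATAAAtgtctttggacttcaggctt
Thbs4: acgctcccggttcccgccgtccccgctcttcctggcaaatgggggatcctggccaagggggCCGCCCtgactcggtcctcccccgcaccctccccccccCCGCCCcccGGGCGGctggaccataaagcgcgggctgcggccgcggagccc
Clec11a: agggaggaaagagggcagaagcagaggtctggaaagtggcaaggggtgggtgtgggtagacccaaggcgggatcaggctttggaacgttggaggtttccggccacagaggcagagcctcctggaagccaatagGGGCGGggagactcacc

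The 8 motifs, each searched on both strands over 300 bases (250 before and 50 after the start), began with TGGGAA, the core site of Rbpj, which is the DNA-binding partner of Notch. For steroid hormone receptors the letters AGAACA were searched, and for basic helix-loop-helix factors the E-box CACGTG was used. The Smad motif was taken as CAGACA in this search, and the motif of AP-1 factors was taken as TGACTCA on either strand. Of core promoter elements the TATA box was read as TATAAA wherever it occurred, and the GC box of Sp1 was read as GGGCGG in the same windows. The last was the Tead motif, read as GGAATG in each promoter. The Rbpj core occurred in 25.6% of 32851 promoters and, among 8 entries of 7 members (Postn has 2), in Fbn1 and Thbs4. The TATA box occurred in 13.6% of promoters and in Myoc and Postn, and the GC box in 35.7% of promoters and in Clec11a, Fbn1 and Thbs4. The Smad motif occurred in 21.0% of promoters and in Myoc, Sparc and Thbs4, the steroid receptor letters in 19.0% and in Sparc, and the Tead motif in 14.7% and in Thbs4. The E-box (7.15% of promoters) and the AP-1 motif (5.20%) occurred in none of the 8 entries. The printed stretch of Cilp holds none of the 8, and no printed matches overlap. A match describes letters and not a bound site. Promoters of Dcn, Lum and Spon2 were not analysed here.

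In control thyroids 9 of the 10 genes had their highest level in F among the 16 labels, with UMIs summed over the RW samples. By the mean over samples Sparc was higher in S (4913 CPM, 2 samples) than in F (4338 CPM). F held 3.41% of all RW UMIs, but 100% of those of Cilp, 99.1% of those of Myoc, 98.7% of those of Lum, 94.2% of those of Dcn, 85.4% of those of Fbn1, 76.4% of those of Spon2, 75.6% of those of Thbs4 and 63.0% of those of Clec11a. Sparc and Postn were shared more widely. Since the genes were chosen for F, this order is a description. Labels are written as the authors gave them.

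**Figure D1:**
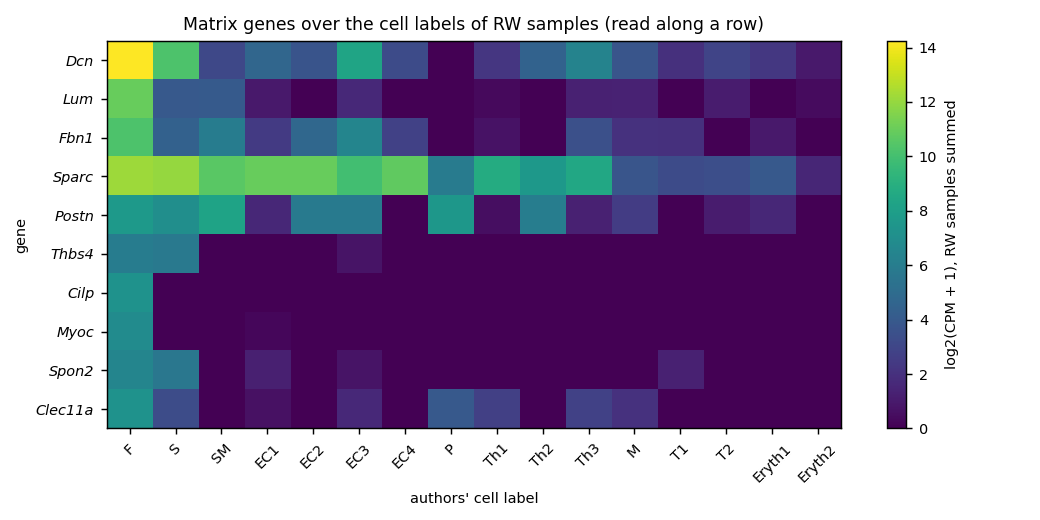
Colour gives log2(CPM + 1) of each gene (vertical axis) in each of the authors' 16 cell labels (horizontal axis), with UMIs summed over the 3 RW samples, and each row is to be read along the labels. Cilp and Myoc are bright in F alone, while Sparc also reaches S, SM and the EC labels and Postn peaks in SM.

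Sparc, the gene of a glycoprotein that binds collagen and limits cell spreading, had 4508 CPM in RW F cells, 4062 CPM in S, 1977 in EC1, 1944 in EC2, 1734 in EC4, 1556 in SM, 970.0 in EC3, 433 in Th1 and 378 in Th3. In Eryth2, read here as the background level, it had 1.9 CPM. Over RW samples the F values ran from 3304 to 5040 CPM and the S values were 2530 and 7297 CPM, so F and S do not differ beyond their spread. EC1 samples lay between 1959 and 2001 CPM, and EC4 samples between 1524 and 1801 CPM.

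Postn, the gene of a glycoprotein made in remodelling tissue, was the exception to the order. It had 306 CPM in SM, 209 CPM in F, 183 CPM in P and 130 CPM in S when RW samples were summed. In RW, 36.9% of its UMIs were in F. Its 3 RW values in F were 112, 372 and 21.8 CPM, which covers the levels of all 3 other labels.

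Thbs4 and Spon2 had a second site in S. In RW, Thbs4 had 62.3 CPM in F and 53.1 CPM in S, and Spon2 had 88.7 CPM in F and 50.1 CPM in S. The S values rest on 18 and 17 UMIs. The RW samples 1 and 3 had 69.3 and 29.8 CPM of Thbs4 and 17.3 and 164 CPM of Spon2 in S, so neither gene differs between F and S beyond the spread. Dcn followed the order F (19506 CPM), S (1238 CPM) and EC3 (325 CPM). Of the 465 Dcn UMIs in RW EC3 cells, 1 cell held 365.

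By a fixed rule, the 2 genes with the most similar pattern were found for each member over the 15 labels with at least 20 RW cells, among 11652 genes with at least 100 UMIs (Pearson's r of log2(CPM + 10), with all points taken from the same 3 libraries). Cilp was most like C7 (r = 1.00) and Myoc was most like Cilp (r = 1.00), since each was found almost entirely in F. Lum was most like Svep1 (r = 0.995) and Dcn like Plekha6 (r = 0.985). Fbn1 was most like Ddr2 (r = 0.98), which encodes a collagen receptor, and Loxl2 (r = 0.97), which encodes a collagen crosslinking enzyme. Sparc was most like Npdc1 (r = 0.97) and Serpinh1 (r = 0.97), the collagen chaperone. Clec11a was most like C3 (r = 0.98), Spon2 like Lsamp (r = 0.99) and Postn like Angptl4 (r = 0.92). Thbs4 had under 100 UMIs in RW and was not compared.

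The members differed among themselves under the antibodies. In F, 3 members were higher and 3 lower under ligand blockade with no overlap between groups, and under receptor blockade 1 was higher and 7 lower. Counted by an adjusted p under 0.05 in edgeR, a test of UMI sums per sample fitted on all genes, 6 of 10 members were among the genes called for aJ1aJ2 against RW, where 0.579% of 4840 genes were called (0.393% higher, 0.186% lower). The 6 became 2 in F cells without another type's marker and 2 with sums thinned to equal depth, and the 28 genes called ranged from 4 to 105 over the alternatives. For aN1aN2 against RW it was 8 of 10 (4 with thinned sums), where 19.8% were called (9.17% higher, 10.6% lower), and for aN1aN2 against aJ1aJ2 7 of 10, where 16% were called (7.67% higher, 8.35% lower). Groups did not overlap for 6, 8 and 10 members in these 3 comparisons, and for 13.2%, 34.4% and 35.0% of all genes tested. The members were picked from these contrasts, so nothing is read from these counts. The first and second comparison share the RW samples.

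**Figure D2:**
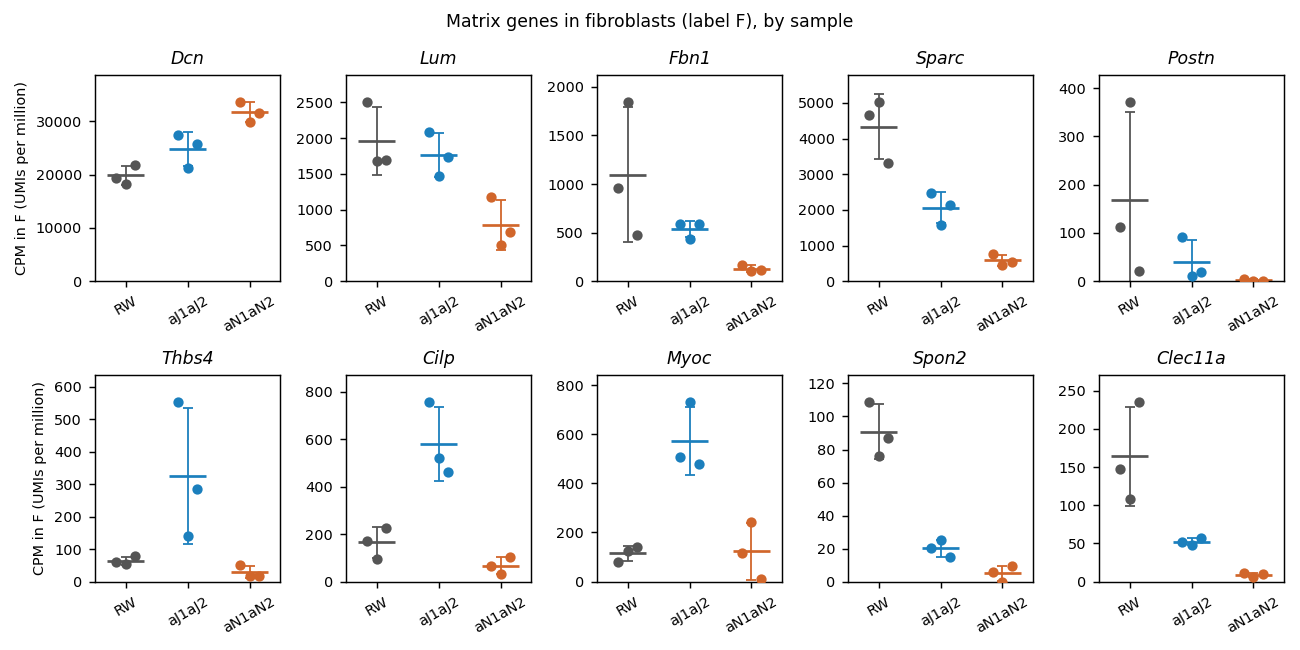
Each panel shows 1 gene in label F, with the level in CPM on the vertical axis (from 0) and the 3 antibody groups on the horizontal axis. Points are samples, horizontal bars group means and error bars SD (n = 3). Thbs4, Cilp and Myoc are highest in aJ1aJ2. The means of Sparc, Spon2 and Clec11a step down from RW to aJ1aJ2 to aN1aN2, where Spon2 has 2 UMIs.

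Dcn was the one member with a higher level in every aN1aN2 sample than in every RW sample. Its RW values were 19433, 18338 and 21799 CPM, those of aJ1aJ2 27526, 21293 and 25742 CPM, and those of aN1aN2 33720, 29902 and 31610 CPM. All aN1aN2 samples lie above all others, while aJ1aJ2 overlaps RW. The log2 difference from RW was 0.33 ± 0.17 (SE, n = 3) in aJ1aJ2 and 0.71 ± 0.17 in aN1aN2.

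Lum, the second small proteoglycan and a neighbour of Dcn on chromosome 10 (Dcn at 97479609 to 97518143, Lum at 97565128 to 97572703, both on the plus strand, GRCm38), went the other way under receptor blockade. RW samples had 2512, 1678 and 1696 CPM, aJ1aJ2 samples 2088, 1475 and 1733 CPM, and aN1aN2 samples 1172, 501 and 691 CPM. The aN1aN2 samples lie below all others, and aJ1aJ2 and RW overlap. The log2 difference from RW was -0.14 ± 0.25 in aJ1aJ2 and -1.28 ± 0.27 in aN1aN2. The first of these was 0.08 without RW 1, and the log2 ratio of aJ1aJ2 to RW was 0.30 in series A and -0.39 in series B, so its sign is not settled.

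Fbn1 was at 956, 1850 and 479 CPM in RW, 587, 438 and 588 CPM in aJ1aJ2 and 169, 103 and 112 CPM in aN1aN2. RW itself varies widely. Of the aJ1aJ2 samples, 2 fall within its range and 1 lies just below it, while all aN1aN2 samples lie below it. The log2 difference was -1.03 ± 0.32 in aJ1aJ2 and -3.06 ± 0.39 in aN1aN2. Without RW 2 the differences were -0.41 and -2.44. Within series A the log2 ratio of aJ1aJ2 to RW was 0.29 (1 sample each) and within series B it was -1.45 (2 samples each), so the sign differs between the series. The gene overlaps Gm9913 on the opposite strand, which had 1 UMI in F.

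Sparc in F was at 4669, 5040 and 3304 CPM in RW, 2464, 1588 and 2151 CPM in aJ1aJ2 and 761, 447 and 542 CPM in aN1aN2. The 3 groups form 3 separate bands in that order. The log2 difference from RW was -1.06 ± 0.22 in aJ1aJ2 and -2.86 ± 0.25 in aN1aN2, where 1 unit is a factor of 2. Within series A the log2 ratio of aJ1aJ2 to RW was -0.42 and within series B -1.38. Without aN1aN2 2, the library with high globin, the receptor difference was -2.70.

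Postn in F was at 112, 372 and 21.8 CPM in RW, 91.9, 11.3 and 18.2 CPM in aJ1aJ2, and 5.6, 0 and 0 CPM in aN1aN2. In RW 2, 8 cells held 161 UMIs, and 1 of them held 56. The aJ1aJ2 samples overlap RW, and the log2 difference of -2.42 ± 0.63 was -1.0 without RW 2 and -3.65 without aJ1aJ2 1. The sign differed between series A (2.08) and series B (-4.04). Under receptor blockade the gene had 1 UMI in 121 cells against 198 UMIs in 120 RW cells. The RW level was 94.2 times the aN1aN2 level (95% interval 16.7 to 3738, counting error only), and 32.4 times (5.47 to 1314) without RW 2.

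Thbs4, Cilp and Myoc were higher in every aJ1aJ2 sample than in every RW sample. Thbs4 encodes a pentameric glycoprotein of tendon and muscle matrix, Cilp a protein first known from cartilage, and Myoc a secreted protein best known from the outflow tissue of the eye. Thbs4 was at 59.7, 55.5 and 78.5 CPM in RW, 553, 141 and 285 CPM in aJ1aJ2 and 50.7, 18.1 and 18.7 CPM in aN1aN2. The aJ1aJ2 samples spread over a wide range but lie above all RW samples, and aN1aN2 lies below RW on 9, 3 and 2 UMIs. The log2 difference was 2.34 ± 0.40 in aJ1aJ2 and -0.99 ± 0.68 in aN1aN2. Without aJ1aJ2 1 the first was 1.75, and without aN1aN2 1 the second was -1.75.

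Few cells carried the Thbs4 signal. In aJ1aJ2 1, 1 cell held 223 of 247 UMIs (90.3%), and without that cell the sample had 55.5 CPM. Without the largest cell in each sample the aJ1aJ2 values were 55.5, 74.3 and 197 CPM and the RW values 14.6, 37.7 and 0 CPM, so the groups still did not overlap. In aJ1aJ2, 33 of 297 F cells had a Thbs4 UMI (11.1%, 95% exact interval 7.77 to 15.2%) and in RW 9 of 120 (7.50%, 3.49 to 13.8%). After thinning each cell to 1000 UMIs, which left out 28 aJ1aJ2 and 11 RW cells, the shares were 6.32% and 6.42%. The positive cells held on average 49.4, 12.4 and 9.89 UMIs in the aJ1aJ2 samples and 4.25, 6.0 and 18 UMIs in the RW samples. The UMIs per positive cell therefore overlap between the groups, and RW 3 rests on 1 cell.

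Cilp was at 172, 97.1 and 227 CPM in RW, 757, 519 and 464 CPM in aJ1aJ2 and 67.6, 30.2 and 103 CPM in aN1aN2. All aJ1aJ2 samples lie above RW, and aN1aN2 overlaps the lower end of RW. The log2 difference from RW was 1.86 ± 0.28 in aJ1aJ2 and -1.31 ± 0.40 in aN1aN2, the second being -2.10 in F cells without a UMI of another type's marker. A Cilp UMI was found in 73 of 297 aJ1aJ2 F cells and in 17 of 120 RW F cells, and after thinning in 18.2% and 7.34% of cells, with each aJ1aJ2 sample (17.3% to 20.4%) above each RW sample (6.0% to 8.57%). In aJ1aJ2 1, 1 cell held 193 of 338 UMIs.

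Myoc was at 80.8, 125 and 139 CPM in RW, 509, 732 and 479 CPM in aJ1aJ2 and 118, 241 and 9.3 CPM in aN1aN2. The aJ1aJ2 samples lie above all others and the aN1aN2 samples scatter on both sides of RW. The log2 difference was 2.33 ± 0.36 in aJ1aJ2 and 0.24 ± 0.44 in aN1aN2, and the second was -0.60 without aN1aN2 2. After thinning, 10.2%, 22.4% and 21.2% of F cells had a Myoc UMI in the aJ1aJ2 samples and 11.4%, 8.0% and 8.33% in the RW samples, so the shares overlap through aJ1aJ2 1. The gene overlaps Myocos on the opposite strand, which had 0 UMIs in F.

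These 3 genes were found partly in the same cells. Among aJ1aJ2 F cells with at least 1000 UMIs, 71.0% of the 31 cells with Thbs4 also had Myoc, against 21.4% of the cells without Thbs4. Cilp was found in 54.8% of the cells with Thbs4 and in 23.1% of those without. For Myoc and Cilp in aJ1aJ2, Cilp was found in 35.6% of the cells with Myoc and in 23.5% of the others. In RW the 9 cells with Thbs4 had Myoc in 44.4%, against 13.0% of the others, and Cilp in 22.2%, against 15%. There the 17 cells with Myoc had Cilp in 29.4%, against 13.0% of the others. Depth per cell is shared by the genes within a cell, and its part in this was not tested. As a measure of background, in Eryth2 0 of 1092 cells had a UMI of Thbs4, Cilp or Myoc, which allows a share of up to 0.275% at a median depth of 7944.5 UMIs.

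Spon2 and Clec11a were lower in aJ1aJ2 than in RW, and their aN1aN2 values, from 2 and 4 UMIs, were lower again. Spon2, the gene of a secreted protein that binds integrins, was at 109, 76.3 and 87.2 CPM in RW, 20.2, 25.1 and 15.1 CPM in aJ1aJ2 and 5.6, 0 and 9.3 CPM in aN1aN2. Its sample values do not overlap, but the 0 of aN1aN2 2 allows up to 18.1 CPM, above aJ1aJ2 4. Its step from aJ1aJ2 to aN1aN2 is therefore not settled. The log2 difference was -2.10 ± 0.29 in aJ1aJ2, and with receptors blocked only 2 UMIs were counted, where RW had 84. The RW level was 20.0 times as high (95% interval 5.36 to 168, counting error only). In series A and B the log2 ratio of aJ1aJ2 to RW was -2.11 and -2.20. After thinning, 2.86%, 6.0% and 0% of F cells had a Spon2 UMI in the RW samples. The aJ1aJ2 samples had 4.08%, 0.862% and 0.962%, so these shares overlap.

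Clec11a, the gene of a growth factor that acts on bone and blood cell precursors, was at 148, 109 and 235 CPM in RW, 51.5, 47.7 and 57.6 CPM in aJ1aJ2 and 11.3, 6.0 and 9.3 CPM in aN1aN2. The 3 groups of this gene are separate. The log2 difference was -1.57 ± 0.25 in aJ1aJ2 and -4.06 ± 0.50 in aN1aN2, the second from 4 UMIs. A Clec11a UMI was found in 43.3% of RW F cells, 17.2% of aJ1aJ2 and 3.31% of aN1aN2 F cells, and after thinning in 15.6%, 5.58% and 0% of 106 cells. The thinned shares of RW 3 (8.33%) and aJ1aJ2 4 (9.62%) overlap, so these 2 groups are not separate by that measure.

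**Figure D3:**
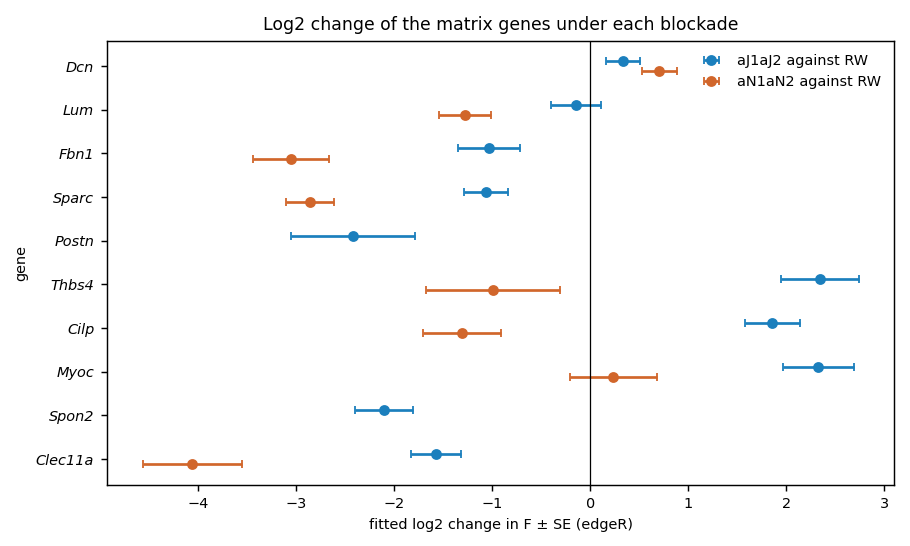
Points give the fitted log2 difference from RW in label F (horizontal axis) for each gene (vertical axis), in blue for aJ1aJ2 and in orange for aN1aN2, with error bars of 1 SE. Postn and Spon2 have no orange point, since 1 and 2 UMIs do not fix a fold. Thbs4 and Cilp lie on opposite sides of 0 under the 2 blockades, with the orange Thbs4 point resting on 14 UMIs.

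Thbs4 and Cilp thus had mean levels above RW under ligand blockade and below it under receptor blockade, where 1 Cilp sample overlapped RW. For Thbs4 the aN1aN2 samples rest on 9, 3 and 2 UMIs. Without the largest cell in each sample they had 5.67, 6.12 and 0 CPM, against 14.6, 37.7 and 0 CPM in RW, so these groups overlap. The direct comparison of aN1aN2 with aJ1aJ2 gave log2 differences of -3.33 ± 0.54 for Thbs4, -3.17 ± 0.36 for Cilp and -2.09 ± 0.39 for Myoc. For Sparc it was -1.80 ± 0.24, for Fbn1 -2.03 ± 0.39, for Clec11a -2.49 ± 0.59, for Lum -1.13 ± 0.26 and for Dcn 0.37 ± 0.17. For Postn there was 1 UMI against 62, and for Spon2 2 UMIs against 39.

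Outside F the same genes were tested label by label. The members were picked for their values in F, but earlier results existed for all labels, so independence of these tests from the choice is not shown. Of the 10, 5 (Dcn, Sparc, Postn, Fbn1 and Clec11a) passed the filter on low counts in at least 1 of 8 labels, which gave 44 tests over the 3 comparisons. Of these, 13 were called at an adjusted p under 0.05 (edgeR, adjusted over all genes of the label), 9 of them for Sparc. DESeq2 called 10. The share of all genes called by edgeR ran from 0% to 34.4% over these labels and comparisons. None of the 16 tests of aJ1aJ2 against RW was called by edgeR or DESeq2, and 5 had an unadjusted p under 0.05. Dcn in Th1 (log2 2.85, edgeR adjusted p = 0.0924) passed without aJ1aJ2 1 (edgeR adjusted p = 0.00461) and without the filter on low counts. Dcn in EC1 (1.53, edgeR adjusted p = 0.423) passed without the filter. Each difference rests on 1 sample. In Th1, aJ1aJ2 1, 3 and 4 had 5.12, 62.9 and 6.61 CPM, and RW had 3.33, 9.34 and 2.48 CPM. In EC1 those aJ1aJ2 samples had 6.54, 10.2 and 169 CPM, and RW had 10.4, 6.73 and 46.2 CPM.

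Sparc fell in EC1, EC2, EC3, EC4 and Th1 under receptor blockade. Label S, where it was second highest in RW by summed UMIs, had fewer than 20 cells in each aN1aN2 sample and was not tested. The summed Sparc level in S was 5461 CPM in 37 aN1aN2 cells against 4062 CPM in 62 RW cells. In EC1, samples had 2001, 1959 and 1971 CPM in RW, 2301, 1307 and 1445 CPM in aJ1aJ2 and 1049, 908 and 1076 CPM in aN1aN2. Every aN1aN2 sample was below every other sample, and the log2 change from RW was -1.0 ± 0.15 (edgeR adjusted p = 7.18e-05). In EC1, 17.8% of genes were called in this comparison. In EC4 the change was -1.07 ± 0.18 (adjusted p = 9.18e-05, 21.1% called), with RW at 1801, 1524 and 1793 CPM and aN1aN2 at 983, 768 and 845 CPM.

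The fall was also seen in EC2 (-0.98 ± 0.20, adjusted p = 0.00334, 15.5% called), where RW had 2 samples with at least 20 cells. In EC3 it was -0.95 ± 0.18 (adjusted p = 0.00601, 5.91% called), from 1079, 825 and 1022 CPM to 426, 540 and 509 CPM. In Th1 it was -0.67 ± 0.10 (adjusted p = 7.94e-05, 34.4% called), from 440, 422 and 431 CPM in RW to 267, 295 and 251 CPM. These 5 calls held in each alternative in which they could be computed. In Th3 the log2 difference of -1.02 ± 0.43 was not called (edgeR adjusted p = 0.193, 5.03% called).

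Against aJ1aJ2, Sparc fell in EC1 (-0.73 ± 0.15, adjusted p = 0.0022, 13.5% called), in EC4 (-0.84 ± 0.19, adjusted p = 0.00172, 17.2% called), in SM (-1.26 ± 0.24, adjusted p = 0.00589, 3.66% called) and in Th1 (-0.35 ± 0.10, adjusted p = 0.0156, 22.3% called). The SM call was lost without aN1aN2 1 (adjusted p = 0.0637) or 3 (0.104), and the Th1 call without aN1aN2 1 (0.0749). Sparc was not called in EC2 (log2 -0.30 ± 0.20, adjusted p = 0.408), EC3 or Th3 in this comparison, where 10.5%, 1.27% and 1.44% of genes were called. Over their alternatives the adjusted p ran from 0.000187 to 0.104 in SM and from 0.0164 to 0.0749 in Th1. In aJ1aJ2 against RW the Sparc log2 difference was below 0 in all 7 labels tested, between -0.13 ± 0.47 in S and -0.68 ± 0.21 in EC2, and none was called. Without aJ1aJ2 1 it passed in EC1 (-0.54, edgeR adjusted p = 0.00505) and Th1 (-0.37, adjusted p = 0.0336), while in S without RW 3 it passed in the other direction (0.73, adjusted p = 0.0193). The share of genes called in that comparison was 1.43% in EC1, 1.91% in EC2, 0.0618% in EC3, 0.903% in EC4, 0.612% in Th1 and 0% in S and Th3. The fall in F was larger in size than in any of these labels, but whether it differs from them was not tested.

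**Figure D4:**
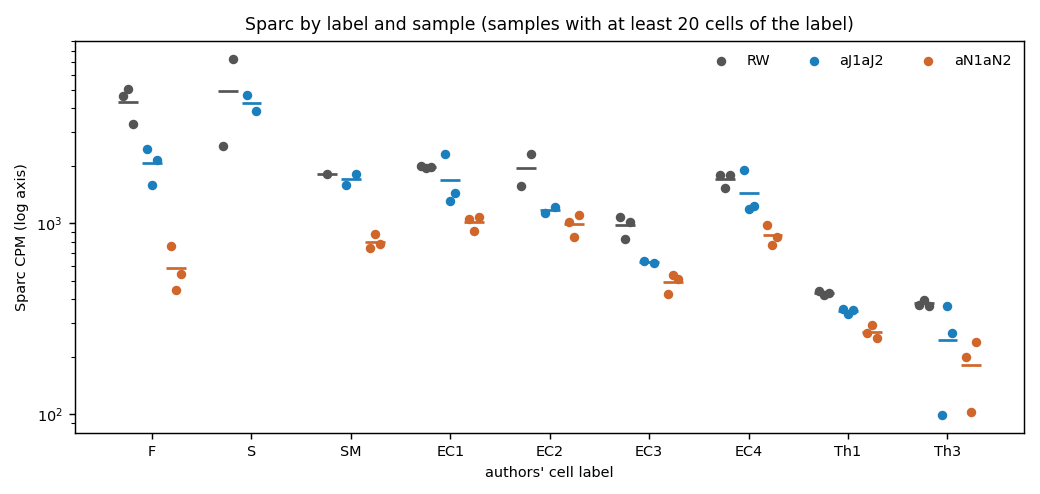
Sparc level in CPM (vertical axis, log scale) by cell label (horizontal axis), with 1 point per sample that has at least 20 cells of the label, bars at group means and colours for the antibody groups. Points of aN1aN2 lie below those of RW in F, in all 4 EC labels and in Th1.

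The other calls were for Dcn, Postn and Fbn1 in EC1 and EC3. Dcn in EC1 was higher under receptor blockade (log2 2.80 ± 0.80, adjusted p = 0.0174), but 1 cell held 90 of 97 UMIs in aN1aN2 1 and 1 cell 82 of 93 in aN1aN2 2. Without the largest cell of each sample the values were 6.54, 5.37 and 11.3 CPM in RW and 16.4, 30.1 and 12.7 CPM in aN1aN2. The call was lost under DESeq2 (0.182) and without RW 2 (0.0644), aN1aN2 1 (0.107) or aN1aN2 2 (0.112). Dcn in EC3 was lower (-4.03 ± 1.03, adjusted p = 0.0314), and in RW 2 1 cell held 365 of 368 UMIs. That call was lost without any 1 of the aN1aN2 samples (0.0737, 0.132 and 0.137). With 4, 3 and 1 UMIs in aN1aN2, Dcn reached the low-count filter in EC3 through the other groups, so this call supports no fall.

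Fbn1 in EC3 had 83.9, 91.3 and 86.7 CPM in RW and 30.9, 24.2 and 39.6 CPM in aN1aN2 (log2 -1.43 ± 0.32, adjusted p = 0.0133), and no samples overlap. The call was lost under DESeq2 (0.101) and without aN1aN2 2 (0.0839), the adjusted p ranging from 0.00718 to 0.101 over the alternatives. It rests on 4, 4 and 6 UMIs in aN1aN2, and the other groups alone brought the gene past the filter, so this call supports no fall. Postn in EC3 had 44.9, 57.0 and 68.8 CPM in RW and 0, 12.1 and 26.4 CPM in aN1aN2 (log2 -2.0 ± 0.57, adjusted p = 0.0498), and the call was lost in 6 of 9 alternatives. Postn reached the low-count filter in EC3 through the RW samples (23, 30 and 27 UMIs, against 0, 2 and 4 in aN1aN2), so this call supports no fall.

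The neighbouring matrix genes were read from 5 lists with 79 genes, of which 64 passed the filter in F: small leucine-rich proteoglycans, elastic fibre and microfibril genes, matricellular and adhesive glycoproteins, proteoglycans and basement membrane, and matrix processing. Under ligand blockade none of the 64 was called by edgeR or DESeq2 (18 had an unadjusted p under 0.05, 4 higher and 14 lower), and their median log2 difference was -0.21 against 0.00 for all genes. Some companion genes were called with the series as a term or without the filter on low counts, as given at the end. Under receptor blockade 7 rose and 30 fell (57.8% called, against 19.8% of all genes), with a median of -0.77 against 0.01. As the lists were drawn up with earlier results of these cells known, this is not independent evidence of a direction. Against aJ1aJ2, 6 rose and 27 fell (51.6% against 16%), with a median of -0.61 against -0.02.

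**Figure D5:**
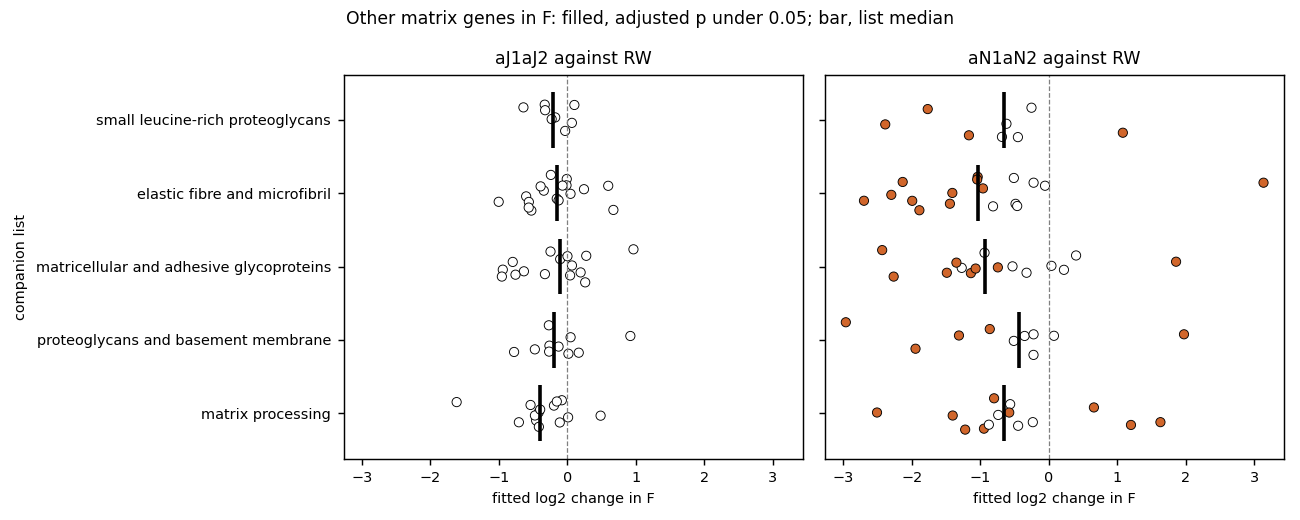
Each point is 1 gene of the 5 lists (vertical axis) with its fitted log2 difference from RW in F (horizontal axis), for aJ1aJ2 (left) and aN1aN2 (right). Filled points passed an adjusted p of 0.05 and bars are list medians; no point is filled on the left and 37 are on the right, 30 of them below 0.

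Elastic fibre and microfibril genes made the longest list of calls under receptor blockade, with 10 of 17 lower and 1 higher. Loxl1, the gene of an elastin crosslinking enzyme, fell from 506 ± 52.5 to 102 ± 18.5 CPM (SD, n = 3; log2 -2.30, edgeR adjusted p = 7.34e-07). Lox, which encodes the related crosslinking enzyme for collagen and elastin, was the one that rose, from 79.7 ± 36.6 to 716 ± 109 CPM (log2 3.13, adjusted p = 1.13e-07). Against aJ1aJ2 the list had the same counts of 10 lower and 1 higher. There Fbln2, a fibulin gene, fell (log2 -1.28, adjusted p = 0.00013) and Lox rose (2.54, adjusted p = 7.24e-07).

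Among small leucine-rich proteoglycans 3 of 8 fell and 1 rose. Aspn, the gene of asporin, fell from 564 ± 82.2 to 104 ± 17.1 CPM (log2 -2.39, edgeR adjusted p = 6.29e-07). Of matricellular and adhesive genes 7 of 15 fell and 1 rose. Olfml2b fell (log2 -2.26, adjusted p = 1.32e-05), while Thbs1, a thrombospondin gene, rose from 126 ± 114 to 440 ± 216 CPM (1.86, adjusted p = 0.00792).

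Of the proteoglycan and basement membrane list 4 of 10 fell and 1 rose, which was Prg4, the gene of lubricin (log2 1.97, edgeR adjusted p = 1.41e-05). In matrix processing 6 of 14 fell and 3 rose. Pcolce, the gene of the enhancer of procollagen cleavage, fell from 1539 ± 94.9 to 268 ± 51.8 CPM (-2.51, adjusted p = 8.49e-07), and Mmp14, the gene of a membrane collagenase, rose (1.20, adjusted p = 0.000361). Against aJ1aJ2, Thbs1 (2.81), Adamts1 (2.17) and Mmp14 (1.35) rose and Aspn (-2.21), Loxl1 (-1.91) and Pcolce (-2.09) fell, each with an adjusted p under 0.05. Beside these results stand the lower depth of F cells in aN1aN2 and the high globin of aN1aN2 2, and the part of either was not tested beyond the alternatives given at the end.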

How the data were processed

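Droplet libraries (10x Genomics 3' v2, aimed at 8000 cells) were sequenced from the 9 pools per the labels' protocols. The authors deposited raw counts of UMIs per gene and cell and a cell annotation. Cell Ranger and build GRCm38 are named in the submitters' processing notes, with no version. How cells were called, filtered for doublets and labelled is not given in the sources used here, and no doublet caller was run. In 2619 annotation lines an unquoted comma was mended. Symbols were found for 52403 of 52636 identifiers. Coordinates come from GENCODE M21 (GRCm38).

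UMIs were summed per sample and label, for samples with at least 20 cells, and tested with edgeR 4.0.16 (quasi-likelihood, filterByExpr, TMM, Benjamini-Hochberg over all genes) in R 4.3.3, with all groups in 1 fit; DESeq2 1.42.0 was an alternative. The levels in CPM are UMIs per 1000000 of the label's total, without TMM. Fold differences and their SE are from edgeR. In simulated sums for aJ1aJ2 against RW in F (4592 genes), 49 of 50 and 50 of 50 genes changed by log2 -2 and 2 were called, 34 and 43 of 50 at -1 and 1, and 13 of 4392 unchanged genes. Replicate pairs in F differed by more than counting noise (chi-square per degree of freedom 2.26 to 5.33), and pools are not stated to be separate cohorts, so p-values measure the spread between these pools. Intervals and zero limits cover counting error only (95%, 3 counts).

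The members and the companion and marker lists were chosen with earlier results of these data known. Named companion genes are the up to 4 called per direction and comparison with the smallest p.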

Additional observations from a re-analysis of the deposited data

Results flagged for a closer look

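Under receptor blockade the mean level of Dcn was above RW in F and below RW in EC3, but the EC3 gap rests on single RW cells. The log2 ratio of (mean CPM + 1) between aN1aN2 and RW was 0.68 in F and -3.94 in EC3, and every sample of aN1aN2 lay above RW in F and below RW in EC3. The difference between the labels was not tested. In EC3 of RW, 465 UMIs came from 10 cells, and the largest cell of each sample held 72 of 81, 365 of 368 and 15 of 16 of them; without these cells RW had 18.2, 7.40 and 2.62 CPM and aN1aN2 had 16.4, 12.5 and 0 CPM.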

How the results depend on the processing

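Counts of called members were within 1.5 times of those reported except as follows. For aJ1aJ2 against RW, 2 members were called (Clec11a and Myoc) with the 420 F cells that had no UMI of another cell type's marker, and 2 (Cilp and Myoc) after each F sum was thinned to 107055 UMIs, an alternative chosen after seeing the data. The 28 genes called became 4 with thinned sums, 105 without the filter on low counts and 67 with the series as a term, and ran from 4 (without RW 2) to 44 (without RW 3) when 1 sample was left out, with 11 without RW 1, 7 without aJ1aJ2 3 and 13 without aJ1aJ2 4. The companion genes called, 0, became 10 without the filter and 4 with the series as a term, and ran from 0 to 1 with 1 sample left out. For aN1aN2 against RW, thinned sums gave 4 members and 528 genes. For aN1aN2 against aJ1aJ2, thinned sums gave 374 genes, and leaving out 1 sample gave 465 to 644 genes (465 without aN1aN2 2) and 21 to 32 companion genes (21 without aN1aN2 2). The 13 calls in other labels became 26 without the filter and ran from 8 (without aN1aN2 1) to 17 with 1 sample left out. The cause of these shifts was not tested, apart from fewer UMIs in thinned sums. Of the 13 single calls in labels other than F, 6 were lost in at least 1 alternative (18 times in all). Of the members' differences in F, 6 moved by more than the replicate spread (8 times in all). By the limit of 1.5 times alone more of them moved, among them Postn and Thbs4 in every comparison. Lum for aJ1aJ2 against RW and Myoc for aN1aN2 against RW changed sign in 2 alternatives each. The replicate block of RW 1 with aN1aN2 1 and RW 2 with aN1aN2 2 gave 1022 genes and 8 members. Deviations of these pairs correlated at 0.03 and 0.01, and those of RW 3 with aN1aN2 3 at 0.04. Pairs of unlike number ran from -0.04 to 0.02, so these values do not settle whether the numbers pair the pools. Depth limits Postn, Spon2 and Clec11a in aN1aN2, which had 1, 2 and 4 UMIs.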
